A study of Homo sapiens with 28 samples.

Results

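LNCaP cells that carried a Flag-tagged ONECUT2 expression vector were compared between hypoxia, at 0.2% oxygen, and normoxia. Genes entered the comparison when 2 or more of the 4 ONECUT2 libraries reached 1 RPKM and no exact 0 stood beside a value over 10 among them. RPKM is the number of reads on a gene scaled to transcript length and to the mapped reads of the library. Of 19662 genes in the expression table, 12068 met this rule, 7575 did not reach the RPKM limit, 18 were left out for an exact 0 and 1 (ONECUT2 itself) had no value. Among genes near the limit, FGD1 had a second highest value of 1.00 RPKM and was kept, while COL4A6 had 0.9996 RPKM and was not. LNCaP is an androgen-responsive human prostate adenocarcinoma line, and ONECUT2 is a homeodomain transcription factor that the study examined as a driver of neuroendocrine prostate cancer.

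The 4 groups were Flag-OC2 (the ONECUT2 vector) in normoxia, Flag-OC2 at 0.2% oxygen, empty vector in normoxia and empty vector at 0.2% oxygen, with 2 libraries each. The methods describe a Flag-ONECUT2 vector driven by the CMV promoter, and the time in the hypoxia chamber is not given in the sources used here. No label says that libraries of a group came from separate cultures, so p-values measure only the spread between these libraries, which may be technical. The expression of the transgene could not be checked in these data, because ONECUT2 has no value in the ONECUT2 libraries. The study shows a western blot for ONECUT2 in LNCaP cells with the empty vector and with overexpression. In the empty vector libraries ONECUT2 was at 2.89 and 7.86 RPKM in normoxia and at 11.5 and 3.09 RPKM in hypoxia. Read counts were not used here. From the commonest ratio of low RPKM between libraries, depth relative to normoxia replicate 1 of the ONECUT2 vector was 1.42 in normoxia replicate 2 and 1.61 and 1.12 in hypoxia replicates 1 and 2.

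Cells sense low oxygen through prolyl hydroxylases (the EGLN enzymes), which mark the alpha subunits HIF1A and EPAS1 of the hypoxia-inducible factors for destruction by VHL while oxygen is present. In hypoxia the alpha subunits persist, pair with ARNT and bind short DNA elements that hold the core ACGTG or GCGTG. Their known targets raise glucose uptake and glycolysis, vessel growth, collagen modification and removal of mitochondria, and include several of the oxygen sensors themselves.

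Hypoxia raised 629 genes (5.21% of those tested) and lowered 137 (1.14%) in the cells with the ONECUT2 vector, 6.35% together. Induced and lowered genes are those that changed more than 2-fold on the log2(RPKM + 0.1) scale with a limma adjusted p under 0.05. Changes were over 4-fold in 123 induced and 12 lowered genes, and over 8-fold in 35 and 2. Without the limit on fold change, 2317 genes were higher and 1081 lower at an adjusted p under 0.05. The median log2 fold change over all genes tested was 0.09. In bulk libraries such as these, fewer cells of a type and less RNA per cell cannot be told apart. All 629 and 137 genes had groups that did not overlap, as did 42.1% (higher in hypoxia) and 26.1% (lower) of all genes tested. Of the induced genes, 159 passed the RPKM limit through their hypoxia libraries alone, and 29 of the lowered genes through normoxia alone, so these had to differ. Among the genes named here, the first kind includes HTR5A-AS1, AL353354.2, AL035252.1, MYOD1, CD6, CA9, LOX, NCAM1, TGFB1, CXCR4, PTPRN, FXYD6, BEND5 and MBD3L2. It also includes either P4HA2 or LOXL2, and the second kind includes LAMA1, CCL20 and BX088651.2. With libraries left out in turn, between 504 and 711 genes were induced and between 107 and 167 lowered. In each of these fits some of the 629 induced and of the 137 lowered genes lost their call, so similar counts do not mean the same genes. A pseudocount of 1 gave 392 induced and 73 lowered genes. A filter of at least 5 RPKM, where fewer genes were tested, gave 368 and 74. With 2 libraries against 2, an exact rank test of a single gene cannot give a 2-sided p below 0.333.

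**Figure D1:**
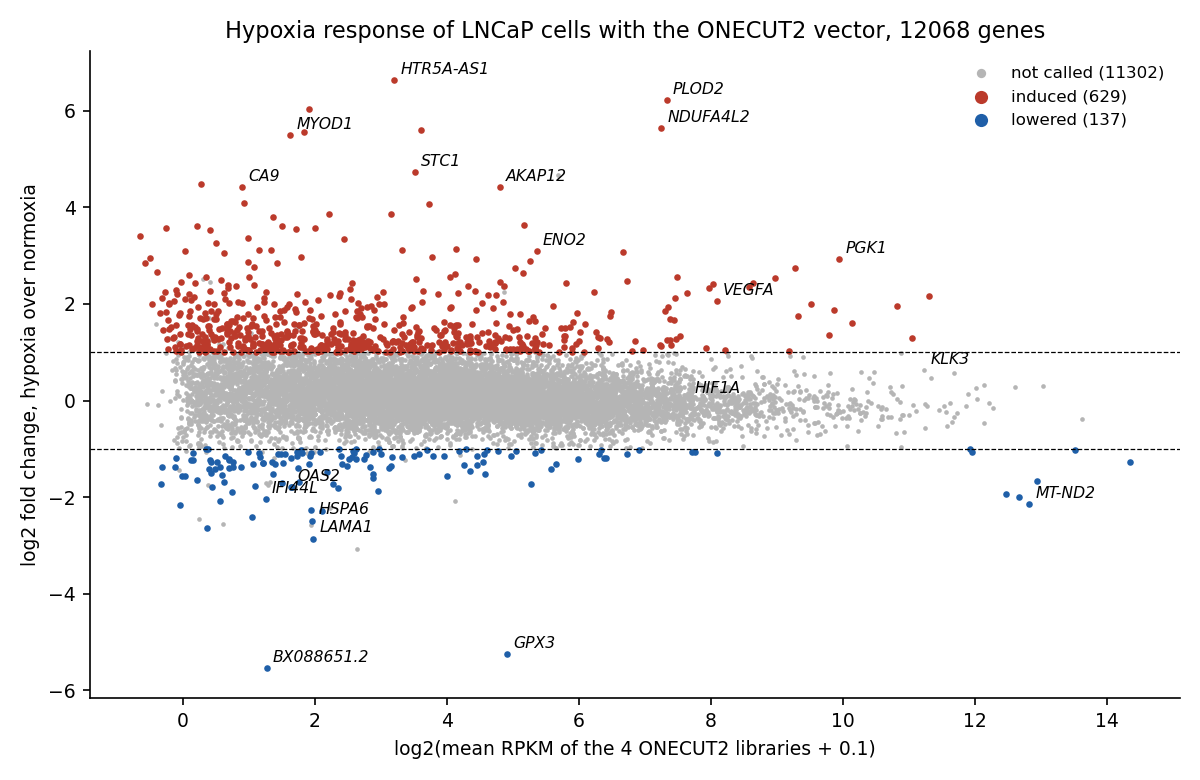
Log2 fold change of hypoxia over normoxia with the ONECUT2 vector (y axis) against the mean level in the 4 ONECUT2 libraries (x axis, log2 of RPKM + 0.1), 1 point per gene. Dashed lines mark a 2-fold change. The 629 induced genes spread over all levels, while the mitochondrially encoded MT-ND2 lies among the lowered genes at the far right.

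Among the induced genes with at least 5 RPKM in hypoxia, HTR5A-AS1, PLOD2 and NDUFA4L2 had some of the largest changes. PLOD2, a lysyl hydroxylase of procollagen, was at 1.69 and 9.87 RPKM in normoxia and at 297 and 335 RPKM in hypoxia, a log2 fold change of 6.22 (standard error 0.64, adjusted p = 0.000335). NDUFA4L2, a mitochondrial protein related to a respiratory chain subunit, was at 4.49 and 7.67 RPKM in normoxia and at 319 and 276 RPKM in hypoxia (log2 fold change 5.63, standard error 0.32, adjusted p = 1.26e-05). Both hypoxia libraries of these genes lay far above both normoxia libraries, and the normoxia replicates of PLOD2 differed more than its hypoxia replicates. HTR5A-AS1, an antisense RNA of the serotonin receptor gene HTR5A, was at 0.0120 and 0.199 RPKM in normoxia and at 17.3 and 18.9 RPKM in hypoxia. The log2 fold change of HTR5A-AS1 was 6.63 with the pseudocount of 0.1 and 4.11 with a pseudocount of 1, so its rank depends on the pseudocount. HTR5A itself, left out for an exact 0, was listed at 0 and at 0.238 RPKM in normoxia and at 15.6 and 17.1 RPKM in hypoxia. The libraries were made with a stranded kit, but whether the counting used strand is not given in the sources used here, so reads of the pair may not be told apart.

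The next largest changes among well expressed genes were those of MYOD1, STC1, AKAP12, ADRA2A, CD6 and PPFIA4. MYOD1, a myogenic transcription factor, was at 0.0189 and 0.0530 RPKM in normoxia and at 5.75 and 6.18 RPKM in hypoxia (log2 fold change 5.49). STC1, a secreted glycoprotein, was at 0.390 and 1.30 RPKM in normoxia and at 22.5 and 21.4 RPKM in hypoxia (4.73 on the log2 scale). AKAP12, a scaffold of protein kinase A, rose from 1.84 and 3.07 RPKM to 57.0 and 49.5 RPKM. Its log2 fold change of 4.42 (standard error 0.22) is close to that of STC1, at a higher level. ADRA2A, an adrenergic receptor, rose from 1.17 and 1.65 RPKM to 23.6 and 26.5 RPKM, a log2 fold change of 4.07. PPFIA4, a liprin that organizes synapses, rose from 0.771 and 1.41 RPKM to 17.4 and 15.7 RPKM, and CD6, a lymphocyte surface receptor, rose from 0.320 and 0.733 RPKM to 9.86 and 7.30 RPKM. Both had a log2 fold change of 3.86. The rule for named genes also gave the transcripts AL353354.2 and AL035252.1, whose normoxia values lie far under the pseudocount. AL353354.2 was at 10.7 and 3.98 RPKM in hypoxia but at 13.7 RPKM in replicate 2 of the empty vector in normoxia. Its call was lost when any 1 of the ONECUT2 libraries was left out, with log2 fold changes between 5.35 and 6.75. AL035252.1 was at 12.2 and 1.73 RPKM in hypoxia.

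Known HIF target genes rose almost as a whole list. Of 35 genes listed, 29 were tested, 27 were induced and 0 lowered (2 of the 27 passed the RPKM limit through hypoxia alone), and the median log2 fold change was 2.25, against 5.21% induced and a median of 0.09 over all genes. The induced members include enzymes of sugar metabolism, an oxygen sensor, ligands and mitophagy receptors. CA9, a carbonic anhydrase of the cell surface, was listed at 0 and at 0.171 RPKM in normoxia and at 3.85 and 3.05 RPKM in hypoxia. Its log2 fold change was 4.42 (standard error 0.43, adjusted p = 0.000237), and 2.03 with a pseudocount of 1. PFKFB4, which makes the activator of phosphofructokinase, was at 4.03 and 6.92 RPKM in normoxia and at 67.4 and 66.1 RPKM in hypoxia (log2 fold change 3.63, standard error 0.21). CA9 is one of the genes that passed the RPKM limit through hypoxia alone. The groups of PFKFB4 did not overlap, as held for all 629 induced genes. BHLHE40, a transcriptional repressor, rose from 4.36 and 5.17 RPKM to 30.0 and 26.6 RPKM, a log2 fold change of 2.55. Outside the call stood STC2, at 60.8 and 45.9 RPKM in normoxia and at 108 and 102 RPKM in hypoxia (log2 fold change 0.99, adjusted p = 0.00315), just under 2-fold. CA12, another carbonic anhydrase, was at 11.5 and 12.3 RPKM and at 14.7 and 15.4 RPKM, a log2 fold change of 0.34 (adjusted p = 0.0562). ADM and ANGPTL4, well-known targets in other cells, did not reach the RPKM limit. ADM was at 0.126 and 0.164 RPKM in normoxia and at 1.03 and 0.633 RPKM in hypoxia, and ANGPTL4 at 0.332 and 0.308 RPKM and at 1.03 and 0.501 RPKM.

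**Figure D2:**
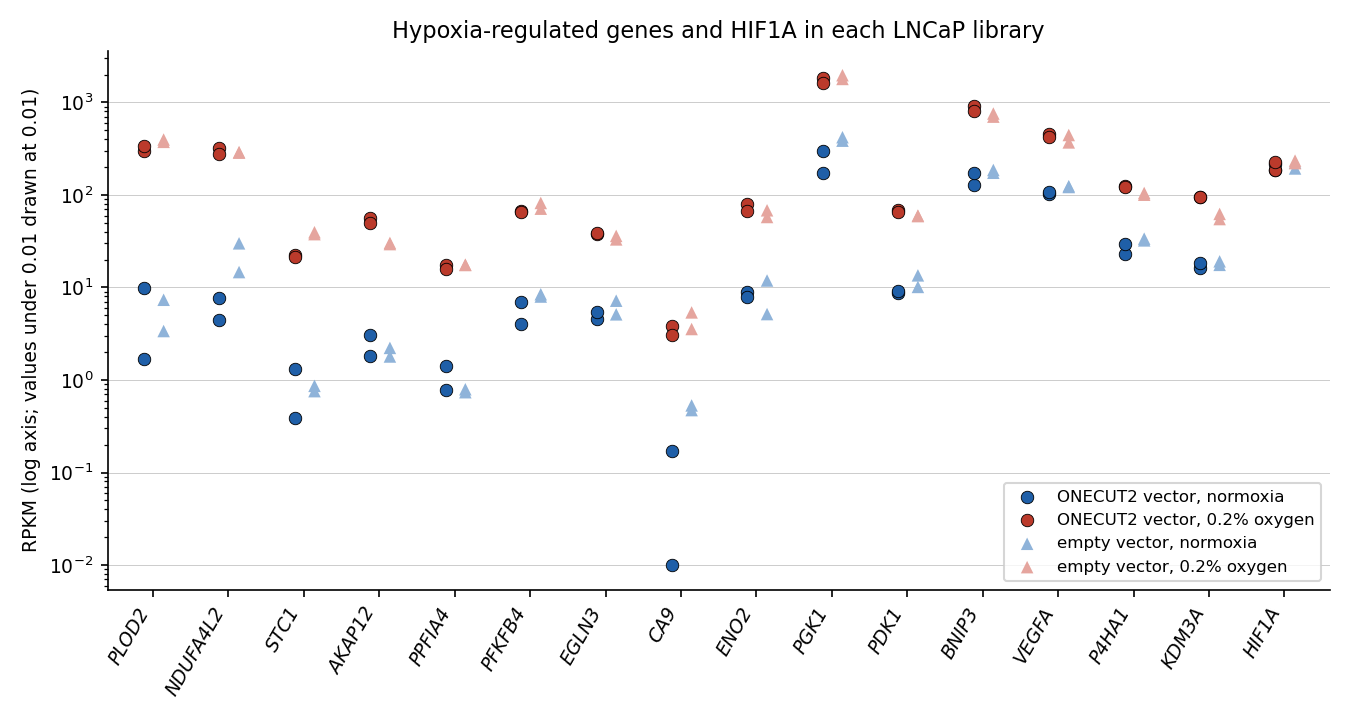
RPKM on a log axis in each of the 8 LNCaP libraries, for 15 genes that rose in hypoxia and for HIF1A. Circles stand for the ONECUT2 vector and triangles for the empty vector, blue for normoxia and red for 0.2% oxygen, 1 symbol per library, with values under 0.01 drawn at 0.01. Apart from HIF1A, every circle in hypoxia is above every circle in normoxia, as held for all 629 induced genes.

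The alpha subunits of HIF did not pass the call at the level of RNA, whereas the sensors EGLN3 and EGLN1 rose. HIF1A was at 186 and 215 RPKM in normoxia and at 185 and 225 RPKM in hypoxia, a log2 fold change of 0.03 (standard error 0.13, adjusted p = 0.895). The groups of HIF1A overlapped, and its sign turned with scaling or with 1 library left out. EPAS1, the other alpha subunit, was at 2.98 and 1.60 RPKM and at 3.84 and 4.19 RPKM, a log2 fold change of 0.85 (adjusted p = 0.0564). Without normoxia replicate 1, its log2 fold change was 1.28 and it passed the call. EGLN3 rose from 4.54 and 5.40 RPKM to 37.7 and 38.8 RPKM (log2 fold change 2.92, standard error 0.17) and EGLN1 from 13.9 and 16.7 RPKM to 53.6 and 53.2 RPKM (1.80, standard error 0.13). These 2 sensors and ARNT2, a relative of ARNT, were the 3 induced genes of 10 tested on this list, with 0 lowered and a median of 0.42, where 5.21% of all genes tested were induced and 1.14% lowered. ARNT2, at 1.14 and 1.98 RPKM and then 4.64 and 3.82 RPKM, lost its call without normoxia replicate 1 or hypoxia replicate 1. EGLN2 had a log2 fold change of 0.54, VHL of 0.27, ARNT of 0.12 and HIF1AN, which blocks the activity of the alpha subunits, of -0.30.

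The bases before the start sites of several of these genes hold the HIF core letters. Promoters were taken from RefSeq on GRCh38.p14, with 250 bases before to 50 after each start, and 9219 of the 12068 tested genes were matched by symbol. The letters ACGTG or GCGTG on either strand, where both strands of CACGTG count as overlapping matches, were found in 29 of 34 promoters (85.3%) of the 22 matched, induced HIF targets and in 24 of 33 (72.7%) of the 18 induced glycolysis genes. They were also found in 60.9% of the 13530 promoters of tested genes, in 55.2% of the 728 promoters of induced genes, in 46.7% of the 120 promoters of lowered genes and in 48.4% of all 35116 promoters. The share in all induced genes was thus below that in all tested genes. The 250 bases before the start are shown for 4 genes that rose over 4-fold, with these letters in capitals. CA9 (chr9:35673678-35673927, plus strand) holds 1 match, PGK1 (chrX:78103998-78104247, plus strand) 3, BNIP3 (chr10:131981924-131982173, minus strand) 6 and PLOD2 (chr3:146161185-146161434, minus strand) 3.
CA9: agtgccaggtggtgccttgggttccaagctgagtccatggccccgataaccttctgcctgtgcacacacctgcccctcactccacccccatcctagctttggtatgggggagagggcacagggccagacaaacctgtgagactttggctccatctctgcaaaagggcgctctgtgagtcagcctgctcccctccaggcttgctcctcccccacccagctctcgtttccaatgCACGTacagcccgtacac
PGK1: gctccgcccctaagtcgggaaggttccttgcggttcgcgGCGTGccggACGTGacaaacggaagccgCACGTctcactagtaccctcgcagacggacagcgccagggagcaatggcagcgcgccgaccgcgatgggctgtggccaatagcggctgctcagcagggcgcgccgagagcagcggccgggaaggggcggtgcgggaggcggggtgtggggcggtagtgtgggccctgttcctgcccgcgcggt
BNIP3: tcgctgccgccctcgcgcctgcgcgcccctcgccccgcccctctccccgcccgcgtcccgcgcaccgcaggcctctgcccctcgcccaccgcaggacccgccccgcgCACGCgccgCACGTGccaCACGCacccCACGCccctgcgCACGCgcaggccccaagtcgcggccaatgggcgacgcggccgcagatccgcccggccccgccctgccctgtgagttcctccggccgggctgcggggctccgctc
PLOD2: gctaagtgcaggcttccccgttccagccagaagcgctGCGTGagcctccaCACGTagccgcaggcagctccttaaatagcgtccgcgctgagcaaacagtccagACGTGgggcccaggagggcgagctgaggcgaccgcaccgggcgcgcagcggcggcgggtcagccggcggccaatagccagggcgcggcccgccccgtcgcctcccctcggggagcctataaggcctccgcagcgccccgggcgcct

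Glycolysis and lactate genes rose from glucose uptake to lactate export. Of 25 genes listed, 24 were tested, 18 were induced (5.21% over all genes tested) and 0 lowered, with a median log2 fold change of 1.43. SLC2A1, the glucose transporter, rose from 7.85 and 9.86 RPKM to 35.7 and 45.2 RPKM (log2 fold change 2.18). PFKP, a phosphofructokinase, rose from 26.4 and 39.6 RPKM to 194 and 167 RPKM (2.47, standard error 0.20). PGK1, which makes ATP in the payoff phase, rose from 173 and 301 RPKM to 1839 and 1632 RPKM, a log2 fold change of 2.93 (standard error 0.22, adjusted p = 5.32e-05). The normoxia replicates of PGK1 stood apart from each other, but both hypoxia libraries were far above the higher of them. LDHA, which turns pyruvate into lactate, rose from 798 and 1061 RPKM to 4117 and 4122 RPKM, and PDK1, which keeps pyruvate out of the mitochondria, from 8.82 and 9.22 RPKM to 69.6 and 65.1 RPKM. ENO2, an enolase also used as a neuroendocrine marker, had the largest change of the list, from 9.01 and 7.94 RPKM to 80.5 and 66.7 RPKM (3.10, standard error 0.31, adjusted p = 0.000282). The increase of GAPDH, at 1.30 on the log2 scale, and of SLC16A3, the lactate exporter, at 1.19, was smaller. Isoforms differed, since PFKM, the muscle phosphofructokinase, was at 93.5 and 81.6 RPKM in normoxia and at 81.1 and 83.1 RPKM in hypoxia. The other members that did not pass were PFKL, HK1, PYGL, GYS1 and PDK3, with log2 fold changes between 0.32 and 0.91.

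**Figure D3:**
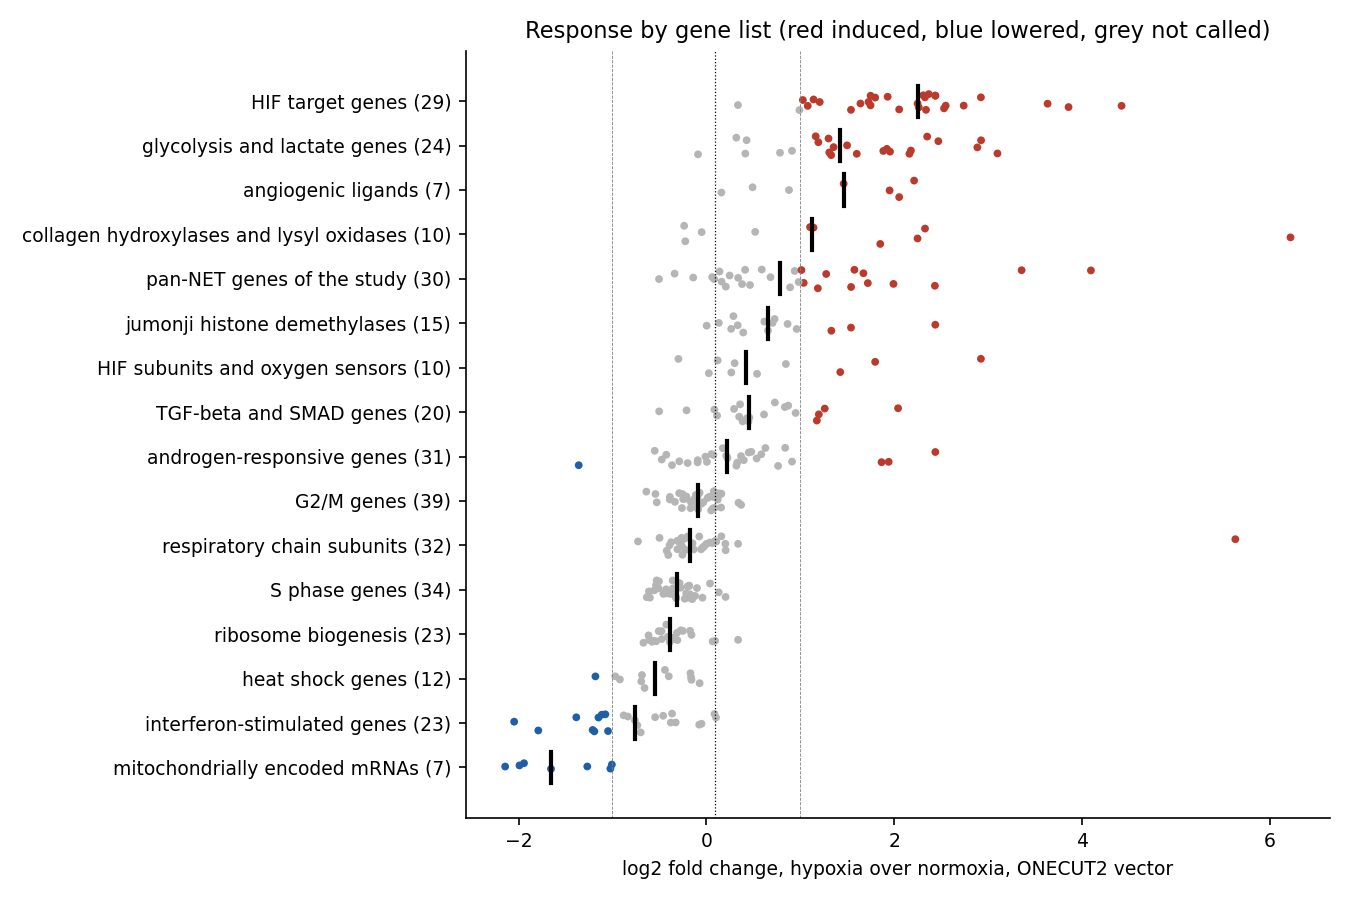
Log2 fold change of hypoxia over normoxia with the ONECUT2 vector (x axis) for the tested genes of each list (rows), 1 point per gene, with the median of each list as a bar, a dotted line at the median of all genes tested and dashed lines at a 2-fold change. HIF targets and glycolysis genes lie to the right, interferon-stimulated genes and the mitochondrially encoded mRNAs to the left.

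Angiogenic ligands and enzymes of collagen also rose in part. Of the angiogenic ligands, 15 were listed, 7 tested, 4 induced and 0 lowered (median 1.46), where 5.21% of all genes tested were induced and 1.14% lowered. VEGFA, the main vascular growth factor, rose from 103 and 109 RPKM to 459 and 420.2 RPKM, a log2 fold change of 2.05 (standard error 0.11, adjusted p = 1.25e-05). ANGPT2, a ligand of the endothelial receptor TEK, rose from 5.16 and 4.97 RPKM to 23.97 and 23.7 RPKM (2.21, standard error 0.16), and APLN, the apelin precursor, by 1.95 on the log2 scale. The replicates of VEGFA and ANGPT2 lay close together in each group. VEGFB (1.46 on the log2 scale) lost its call without normoxia replicate 1 or hypoxia replicate 1. Among collagen hydroxylases and lysyl oxidases, which modify and cross-link collagen, 6 of 10 tested genes were induced and 0 lowered (median 1.12), 2 of the 6 having passed the RPKM limit through hypoxia alone, beside the same shares. With no filter on low values the median was 0.54 over 13 genes. Beside PLOD2, these were LOX (log2 fold change 2.33), P4HA1 (2.25), PLOD1 (1.85), P4HA2 (1.14) and LOXL2 (1.10). P4HA1, the catalytic subunit of a prolyl hydroxylase, went from 22.9 and 29.6 RPKM to 125 and 123 RPKM. Its partner subunit P4HB was not called, at 3501 and 2963 RPKM in normoxia and at 3210.0 and 3015 RPKM in hypoxia (log2 fold change -0.05).

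Of the genes of mitophagy and autophagy, 2 of 12 tested were induced and 0 lowered (median 0.42), and both are mitophagy receptors. For this list and the next ones, 5.21% of all genes tested were induced and 1.14% lowered. BNIP3 rose from 128 and 171 RPKM to 913 and 805 RPKM, a log2 fold change of 2.53 (standard error 0.14), and BNIP3L from 69.9 and 97.2 RPKM to 418 and 417 RPKM, a log2 fold change of 2.34. Of the 8 lipid droplet genes tested, 2 were induced and 0 lowered, VLDLR, a lipoprotein receptor (2.01), and HILPDA, which coats droplets (1.64), while the median of the list was -0.01. Of the 15 jumonji histone demethylases tested, oxygen-dependent enzymes that remove methyl groups from histones, 3 were induced and 0 lowered (median 0.66). KDM3A was at 16.3 and 18.5 RPKM in normoxia and at 94.0 and 95.4 RPKM in hypoxia (log2 fold change 2.44, standard error 0.11). KDM4B had a log2 fold change of 1.54 and KDM5B of 1.33.

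The mitochondrially encoded mRNAs that could be tested were lowered. Of 13 such genes, 7 were tested and all 7 were lowered (median log2 fold change -1.65), where 1.14% of all genes tested were. With the empty vector 4 of the 7 were lowered, where 2.12% of all genes tested were. The other 6 were left out for exact zeros, which fell by condition. MT-ATP6, MT-ATP8, MT-CO3, MT-ND4 and MT-ND4L were listed at 0 in the normoxia libraries of both vectors and lay between 5980.0 RPKM (MT-CO3) and 91883 RPKM (MT-ATP8) in hypoxia with ONECUT2. MT-CO1 was listed at 0 in all normoxia libraries but replicate 1 of ONECUT2, at 17679 RPKM, and was at 9412 and 8853 RPKM in hypoxia with ONECUT2. The direction given here therefore holds for the 7 tested genes only, and the cause of the zeros was not tested. The 7 genes encode subunits of the respiratory chain made inside the mitochondrion. MT-ND2 was at 11560.3 and 12123 RPKM in normoxia and at 2807 and 2559 RPKM in hypoxia (log2 fold change -2.14, standard error 0.11, adjusted p = 1.25e-05). MT-CYB was at 8549 and 9409 RPKM and then at 2241 and 2430.1 RPKM (-1.94, standard error 0.11), and MT-ND1 fell by 1.99 on the log2 scale. The smallest changes were those of MT-ND5 (-1.01) and MT-ND6 (-1.02). MTRNR2L12, a nuclear copy that shares sequence with the mitochondrial ribosomal RNA and is therefore uncertain, was lowered too, from 49.9 and 69.7 RPKM to 18.6 and 17.0 RPKM. Of the 32 nuclear genes listed as respiratory chain subunits, all tested, 1 was induced (NDUFA4L2) and 0 lowered, with a median of -0.17. Over all genes tested 5.21% were induced and 1.14% lowered.

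Interferon-stimulated genes, the antiviral genes that interferons raise, made the other group of lowered genes. Of 25 listed, 23 were tested, 9 were lowered (1.14% over all genes tested) and 0 induced, with a median log2 fold change of -0.76, and 21 of the 23 had a negative value. IFI44L was at 3.68 and 3.80 RPKM in normoxia and at 0.636 and 1.07 RPKM in hypoxia (log2 fold change -2.05, standard error 0.23, adjusted p = 0.000534). OAS2, an enzyme that senses double-stranded RNA, was at 5.02 and 4.42 RPKM in normoxia and at 1.06 and 1.56 RPKM in hypoxia (-1.79, standard error 0.20). IFI27 went from 11.8 and 13.3 RPKM to 5.43 and 4.10 RPKM, and OASL from 7.95 and 7.91 RPKM to 3.42 and 3.31 RPKM. The groups of these genes did not overlap, which held for all 137 lowered genes and for 26.1% of all genes tested (lower in hypoxia). RSAD2, IFI6, OAS1, IFIH1 and IFIT1 were lowered as well, by 1.05 to 1.19 on the log2 scale. ISG15 (-0.55), MX1 (-0.05) and IRF1 (0.10) did not pass. With a pseudocount of 1 the number lowered was 6 of 23. HERC6, a relative of the ISG15 ligases that belonged to the named genes by its size of change, went from 7.99 and 6.66 RPKM to 1.97 and 2.31 RPKM (-1.72, standard error 0.31).

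**Figure D4:**
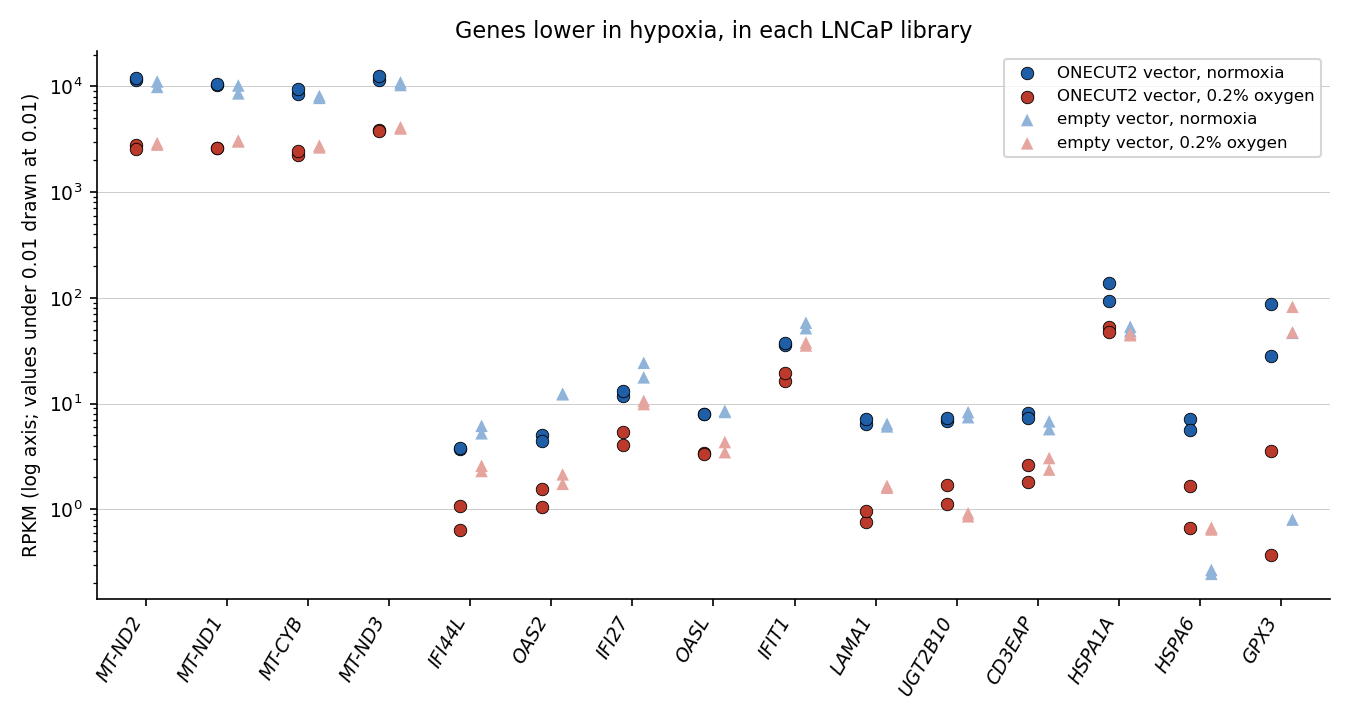
RPKM on a log axis in each of the 8 LNCaP libraries for genes that were lowered in hypoxia with the ONECUT2 vector. Circles stand for the ONECUT2 vector and triangles for the empty vector, blue for normoxia and red for 0.2% oxygen. Mitochondrial mRNAs and interferon-stimulated genes have lower values in hypoxia with both vectors. The triangles of HSPA6 lie under its circles of normoxia.

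Interferon response elements were sought in the same promoters as GAAA, any 2 bases and GAAA again, on both strands. They were found in 7 of 9 promoters (77.8%) of the 7 lowered interferon-stimulated genes that could be matched. These promoters are part of those of all lowered genes, where the share was 10.8% (13 of 120 promoters). It was 2.75% over induced genes, 2.93% over tested genes and 3.57% over all promoters. Interferon-stimulated genes that were not lowered were not counted separately. The 250 bases before the start are shown for a pair of these lowered genes, with the letters in capitals. IFI44L lies at chr1:78620198-78620447 and IFIT1 at chr10:89392373-89392622, both on the plus strand, and each holds 2 matches.
IFI44L: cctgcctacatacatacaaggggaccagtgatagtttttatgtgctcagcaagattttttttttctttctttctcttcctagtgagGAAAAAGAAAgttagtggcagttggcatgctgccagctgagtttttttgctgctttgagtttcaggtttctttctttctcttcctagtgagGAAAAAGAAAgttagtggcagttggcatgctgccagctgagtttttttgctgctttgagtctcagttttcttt
IFIT1: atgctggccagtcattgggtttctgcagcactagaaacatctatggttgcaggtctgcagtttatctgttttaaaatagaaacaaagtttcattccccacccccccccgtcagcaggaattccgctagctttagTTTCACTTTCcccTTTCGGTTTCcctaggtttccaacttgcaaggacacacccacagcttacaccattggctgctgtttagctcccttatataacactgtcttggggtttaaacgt

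Among the other lowered genes were GPX3, LAMA1, UGT2B10, SPAG17 and CD3EAP. LAMA1, a laminin chain of the basement membrane, was at 6.45 and 7.18 RPKM in normoxia and at 0.758 and 0.958 RPKM in hypoxia (log2 fold change -2.86, standard error 0.17, adjusted p = 1.72e-05). UGT2B10, which conjugates steroids and drugs and has close paralogs that can share reads, went from 6.85 and 7.30 RPKM to 1.68 and 1.12 RPKM (-2.28). SPAG17, a protein of the ciliary axoneme, went from 6.04 and 6.42 RPKM to 0.818 and 1.79 RPKM, and CD3EAP, a subunit of RNA polymerase I, from 8.21 and 7.36 RPKM to 2.60 and 1.795 RPKM. The transcript CTD-2132N18.3 had a log2 fold change of -1.86. GPX3, a secreted glutathione peroxidase, had a log2 fold change of -5.25, with replicates that differed widely. It was at 87.4 and 28.4 RPKM in normoxia, at 3.57 and 0.372 RPKM in hypoxia, and at 0.799 and 46.7 RPKM with the empty vector in normoxia. The call of GPX3 was lost without normoxia replicate 1, normoxia replicate 2 or hypoxia replicate 2.

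Heat shock genes had lower values throughout, but most did not pass. All 12 tested genes had a negative log2 fold change (median -0.55), and 1 was lowered, where 1.14% of all genes tested were. That gene was HSPA1A, an inducible chaperone, at 139 and 93.5 RPKM in normoxia and at 53.3 and 47.4 RPKM in hypoxia (log2 fold change -1.18, standard error 0.17), and its call was lost without normoxia replicate 1. Its near-identical copy HSPA1B had a log2 fold change of -0.97, and reads of the pair may be divided between them. HSPA6, a chaperone that was not on this list, was lowered as well (-2.49). HSPA8, the constitutive chaperone, was left out because both hypoxia libraries of ONECUT2 list it at 0. With the empty vector, HSPA1A was at 48.6 and 53.3 RPKM in normoxia and at 44.3 and 45.8 RPKM in hypoxia. The ONECUT2 libraries thus stood above the empty vector in normoxia and near it in hypoxia.

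Genes of growth and lipid synthesis did not pass the call. None of 34 tested S phase genes (median log2 fold change -0.31, 31 negative), 39 G2/M genes (median -0.09), 15 CDK inhibitors and G1 cyclins (median 0.24), 23 ribosome biogenesis genes (median -0.39, 20 negative), 23 sterol synthesis genes (median -0.21), 15 fatty acid synthesis genes (median 0.06) or 21 genes of ER chaperones and the unfolded protein response (median -0.25) was induced or lowered. Nor was any of 6 metallothioneins (median 0.17), 8 alpha-arrestin and MondoA targets (median 0.19) or 9 genes of iron uptake and storage (median 0.31). At an unadjusted limma p under 0.05, 88 of the 193 genes on these 10 lists (45.6%) differed by any fold, against 41.1% of all genes tested, and 1 by more than 2-fold, an iron gene that was lower.

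Androgen-responsive genes passed in both directions. Of 31 tested, 3 were induced and 1 lowered (median log2 fold change 0.22), where 5.21% and 1.14% of all genes tested were. NDRG1, a stress-responsive gene that hypoxia is also known to raise, rose from 111 and 139 RPKM to 633 and 716 RPKM (2.44, standard error 0.12), TRPM8, a cold-sensing channel, by 1.94 and PTGER4, a prostaglandin receptor, by 1.87. NDRG1 was the induced member of the 4 tested NDRG family genes. ACPP, the prostatic acid phosphatase, went from 8.30 and 7.71 RPKM to 3.05 and 3.06 RPKM (-1.36, standard error 0.14, adjusted p = 0.000292). KLK3, the gene of prostate-specific antigen, was at 1934 and 1842 RPKM in normoxia and at 3032 and 2809 RPKM in hypoxia, a log2 fold change of 0.63 (standard error 0.10, adjusted p = 0.0025) under the 2-fold limit. KLK2, its neighbour, had a log2 fold change of 0.91. Of the 9 tested factors of the prostate lineage 1 was induced, SOX9 (1.27, not called with a pseudocount of 1). GATA2 had 0.85 and FOXA1 0.24 on the log2 scale.

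Neuroendocrine markers were mostly too low to be tested. Of 30 listed, 12 were tested, 3 induced (ENO2, NCAM1 and TUBB3, where 5.21% of all genes tested were induced) and 0 lowered, with a median log2 fold change of 0.52, and of 0.14 over 29 genes with no filter on low values. NCAM1, an adhesion molecule of neurons, was at 0.208 and 0.278 RPKM in normoxia and at 1.56 and 1.01 RPKM in hypoxia (1.99, standard error 0.33, adjusted p = 0.00291), and was not called with a pseudocount of 1. TUBB3, a neuronal tubulin, was at 29.2 and 22.7 RPKM and at 59.3 and 49.6 RPKM (1.07, standard error 0.23), and lost its call without normoxia replicate 2 or hypoxia replicate 1. PEG10, a retrotransposon-derived gene, was at 24.8 and 21.8 RPKM and at 28.6 and 36.2 RPKM (0.46, standard error 0.14), and SYP, a synaptic vesicle protein, had a log2 fold change of 0.14 (adjusted p = 0.756). CHGA and INSM1 were near 0 in each ONECUT2 library. CHGA, a granule protein, was at 0.106 and 0.0834 RPKM in normoxia and at 0.0590 and 0 RPKM in hypoxia. INSM1 was at 0.0115 and 0.0322 RPKM and at 0.143 and 0.102 RPKM.

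The study's list of genes shared by neuroendocrine tumours, which it drew up from other samples, gave 12 induced and 0 lowered of 30 tested, out of 88 listed, where 5.21% of all genes tested were induced. The median log2 fold change was 0.79, and 0.24 over 80 genes with no filter on low values. Of the induced genes, 4 of the 12 passed the RPKM limit through their hypoxia libraries alone. With libraries left out, the fewest induced were 8, without hypoxia replicate 1. PTPRN, a protein of secretory granules, was at 0.0354 and 0.223 RPKM in normoxia and at 3.62 and 3.34 RPKM in hypoxia (4.10, standard error 0.44, adjusted p = 0.000401). FXYD6, a regulator of the sodium pump, was at 0.130 and 0.395 RPKM and at 4.55 and 2.48 RPKM (3.36, standard error 0.44). Both were under 1 RPKM in normoxia and are among those 4 genes, so the filter fixed their direction. BEND5 (2.43) lost its call without either hypoxia replicate. MYT1, a neural zinc finger factor, was at 1.59 and 1.98 RPKM and at 4.01 and 3.49 RPKM (1.04, standard error 0.18), and ZNF711 at 1.92 and 1.88 RPKM and at 4.31 and 3.59 RPKM (1.01, standard error 0.19). These stood at the 2-fold limit, and each lost its call under 4 of 9 alternatives, including a pseudocount of 1, where both had 0.77. The remaining induced members were GNG4, KIAA1211, MTSS1, NCAM1, PDZD4, RGS16 and RIMKLA.

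Of the TGF-beta and SMAD genes, 4 of 20 tested were induced and 0 lowered (median log2 fold change 0.45), where 5.21% of all genes tested were induced and 1.14% lowered. BAMBI, a decoy receptor that dampens the pathway, rose from 10.5 and 11.9 RPKM to 42.9 and 50.2 RPKM (2.04, standard error 0.13). ID2, an inhibitor of helix-loop-helix factors, rose from 91.4 and 105 RPKM to 221 and 250.2 RPKM (1.26, standard error 0.11), and ID1 by 1.18. The ligand TGFB1, from 0.972 and 0.991 RPKM to 2.16 and 2.62 RPKM (1.20), lost its call with a pseudocount of 1 and without any 1 of the ONECUT2 libraries. SMAD3, a signal transducer, had a log2 fold change of 0.35. Of the 15 tested genes of epithelial-mesenchymal transition, 3 were induced and 0 lowered (median 0.30), beside the same 5.21% and 1.14%. FN1, the matrix protein fibronectin, rose from 68.1 and 71.9 RPKM to 324 and 336 RPKM (2.24, standard error 0.12), VIM, the intermediate filament vimentin, from 23.6 and 28.7 RPKM to 58.2 and 50.3 RPKM (1.05) and SNAI2, a repressor of epithelial genes, from 6.85 and 7.75 RPKM to 13.6 and 16.6 RPKM (1.04). The calls of VIM and SNAI2 were lost with upper-quartile scaling, among others.

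The counts of the stress lists stand beside 5.21% induced and 1.14% lowered over all genes tested. Of these lists, 3 of 19 tested p53 targets were induced and 0 lowered (median log2 fold change 0.32), and 2 of 25 genes of the integrated stress response, DDIT4 (1.21) and VLDLR, with 0 lowered (median 0.06). GDF15, a secreted stress cytokine, was at 78.4 and 85.2 RPKM in normoxia and at 484 and 398 RPKM in hypoxia (2.42, standard error 0.51, adjusted p = 0.0092). It lost its call without normoxia replicate 1 or hypoxia replicate 1. The other induced p53 targets were RRM2B, a ribonucleotide reductase subunit (1.26), and ZMAT3, an RNA-binding protein (1.06, not called with a pseudocount of 1 or without normoxia replicate 1). Of 18 NRF2 targets, 1 was lowered, GPX2 (-1.09, not called with a pseudocount of 1 or without hypoxia replicate 2), and 0 were induced. Of 6 inflammatory genes, CXCR4, a chemokine receptor, was induced (2.39) and the chemokine CCL20 was lowered (-1.54). The call of CCL20 was lost with a pseudocount of 1 and without normoxia replicate 1 or hypoxia replicate 2. BHLHE40 was the 1 induced gene of 15 tested clock genes, and TTR (1.20, not called without normoxia replicate 2) the 1 induced of 6 ONECUT and endodermal genes.

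Most markers of other cell types did not reach the RPKM limit, but VIM, COL1A1 and CD68 were well above it. All 11 prostate luminal markers were tested and 0 passed. Their summed level was 3717 and 3779 RPKM in normoxia and 5342 and 5184 RPKM in hypoxia, and KLK3 was the member with the highest level. Of 8 basal markers only VIM and KRT14 reached 1 RPKM in 2 libraries, with sums of 26.0 and 30.7 RPKM and of 60.2 and 52.5 RPKM. Of 6 fibroblast markers only COL1A1 did, at 10.9 and 10.9 RPKM and then at 25.2 and 25.9 RPKM, while COL1A2 was listed at 0 in the 4 ONECUT2 libraries. The endothelial sums lay between 0.505 and 1.33 RPKM. Of 6 leukocyte markers only CD68 reached 1 RPKM and PTPRC was listed at 0, with sums of 37.4 and 34.2 RPKM in normoxia and 25.9 and 22.8 RPKM in hypoxia. The part of these markers in the other results was not tested.

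Cells with the empty vector were also kept at 0.2% oxygen. There 621 genes were induced (5.15%) and 256 lowered (2.12%). Both vectors shared 341 induced genes, 54.2% of those with ONECUT2 and 54.9% of those with the empty vector. They shared 68 lowered genes, 49.6% and 26.6% of each list. The 629 genes had a median log2 fold change of 1.36 with ONECUT2 and 1.08 with the empty vector, where 582 were positive. The 137 lowered genes had medians of -1.27 and -0.99, with 128 negative. The HIF targets had a median of 1.95 with the empty vector and glycolysis genes of 1.48, close to the values with ONECUT2, and androgen-responsive genes had 0.59 with 9 induced and 2 lowered. The difference between lists was not tested.

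**Figure D5:**
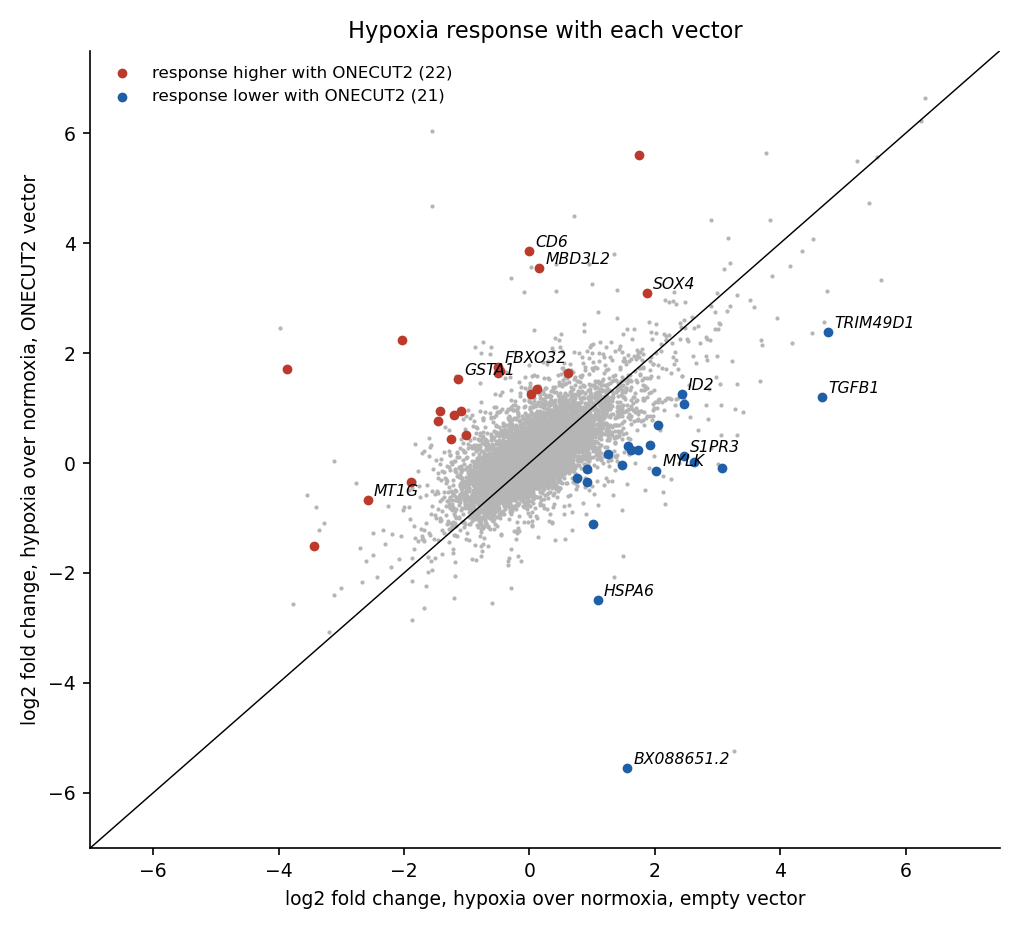
Log2 fold change of hypoxia over normoxia with the empty vector (x axis) against that with the ONECUT2 vector (y axis), 1 point per gene. Genes whose response differed between vectors are marked, 22 above and 21 below the diagonal.

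The difference between the vectors in the response to hypoxia was tested as an interaction. It passed for 22 genes with a higher response with ONECUT2 (0.182%) and 21 with a lower one (0.174%). At an unadjusted p under 0.05 these were 281 and 145. With a block for the replicate number the counts were 7 and 9. The counts also depended on single libraries. Without normoxia replicate 1 of the ONECUT2 vector they were 1 and 0, without hypoxia replicate 1 they were 1 and 1, and without normoxia replicate 1 of the empty vector 119 and 44. None of the 22 or the 21 genes kept its call without normoxia replicate 1 of the ONECUT2 vector, or with no filter on low values, where more genes were tested (0 shared genes in each case). The values given for these genes are those of all 8 libraries with the filter. Of the 22, 13 were induced with ONECUT2 and 12 lowered with the empty vector. Of the 21, 18 were induced with the empty vector.

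Genes with a higher response with ONECUT2 included enzymes of glutathione conjugation and a ubiquitin ligase subunit. GSTA1, a glutathione transferase, was at 24.8 and 35.2 RPKM and then 100.1 and 73.0 RPKM with ONECUT2, and at 14.1 and 16.7 RPKM and then 7.03 and 6.87 RPKM with the empty vector (interaction 2.66 on the log2 scale, standard error 0.28, adjusted p = 0.0139). The vectors went in opposite directions for GSTA1. Its close paralog GSTA2 gave 2.21, and reads may be divided between the pair. FBXO32, that subunit, was at 1.77 and 1.95 RPKM and then 6.98 and 5.94 RPKM with ONECUT2, and at 3.06 and 3.04 RPKM and then 2.26 and 2.02 RPKM with the empty vector (2.23, standard error 0.23). MBD3L2, one of several near-identical copies, rose from 0.344 and 0.497 RPKM to 5.69 and 6.21 RPKM with ONECUT2 and was at most 0.0319 RPKM with the empty vector (3.39). CD6 was listed at 0 in the 4 empty vector libraries. With the replicate block as well, the interaction calls of MBD3L2 (adjusted p = 0.0537 with limma) and CD6 (0.0711) were lost.

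Several of the named genes with a lower response with ONECUT2 were higher in normoxia with ONECUT2 than with the empty vector. S1PR3, a receptor for sphingosine-1-phosphate, was at 5.03 and 6.22 RPKM in normoxia and 5.40 and 6.88 RPKM in hypoxia with ONECUT2, and at 1.08 and 0.998 RPKM and then 6.21 and 6.14 RPKM with the empty vector (-2.34, standard error 0.25, adjusted p = 0.0139). MYLK, the myosin light chain kinase, was at 7.66 and 4.19 RPKM and then 5.47 and 4.83 RPKM with ONECUT2, against 1.14 and 1.34 RPKM and then 5.30 and 5.36 RPKM (-2.16). Both genes reached similar levels in hypoxia with either vector. BCAR3, a signalling adaptor, had -1.60, with 9.49 and 8.32 RPKM in the empty vector hypoxia libraries and 2.998 and 3.16 RPKM with ONECUT2. HSPA6, a heat shock chaperone, was at 7.23 and 5.63 RPKM with ONECUT2 in normoxia and at 1.65 and 0.663 RPKM in hypoxia, while the empty vector libraries lay between 0.245 and 0.671 RPKM (-3.58, standard error 0.51, adjusted p = 0.0325). TRIM49D1, which has near-identical copies, had -2.38. With the replicate block as well, the calls of MYLK (limma adjusted p = 0.0748), TRIM49D1 (0.0748) and BCAR3 (0.0716) were lost. BX088651.2 was listed at 0 in both hypoxia libraries of the ONECUT2 vector and was at 5.45 and 3.83 RPKM in normoxia. Among the lists, TGFB1 (-3.47), ID2 (-1.17) and PER1 (-1.36) had a lower response with ONECUT2, and RGS16 (2.15), KITLG (2.08), MT1G (1.90) and MT2A (1.51) a higher one.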

How the data were processed

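RNA-Seq of LNCaP cells was analysed from the deposited RPKM table, in which the authors aligned reads with STAR 2.4.2a to hg19 and estimated expression with Cufflinks 2.1.1, so values are relative to library depth and transcript length. All 8 LNCaP libraries (4 groups of 2) entered the fit, and every sample column was used (0 left out). Libraries were grouped by their labels. The linear model on log2(RPKM + 0.1) used limma 3.58.1 (R 4.3.3), 4 group means and a mean-variance trend. Contrasts were hypoxia minus normoxia for each vector and their difference, 2-sided, with Benjamini-Hochberg adjustment over 12068 genes. In 16 genes an exact 0 of an empty vector library beside a value over 10 was set to missing. A fold change over 2 on this scale understates the change of low genes. Steps were tested on simulated data. The depth of each library is known only as a ratio, so no counting interval was given. Members and gene lists were chosen with earlier results of these data known.

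The genes named were the 12 with the largest change in each direction among those called with groups that do not overlap and at least 5 RPKM in the higher group, up to 4 called members of each list and any needed to say which did not pass, the 6 with the largest interaction in each direction, and genes the study examined. Some of these are not reported here. Alternatives changed the pseudocount, filter, scaling, variance trend, treatment of zeros, replicate block and libraries. The PC3 and ChIP-Seq data of the series were not analysed here.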

Additional observations from a re-analysis of the deposited data

Results flagged for a closer look

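The response to hypoxia differed between the ONECUT2 and the empty vector, by the interaction test, for 22 genes in the higher and 21 in the lower direction, and none of these genes kept its call without normoxia replicate 1 of the ONECUT2 vector or with no filter on low values. With a replicate block the counts were 7 and 9, and the genes listed here are those called without it. Values are ONECUT2 minus empty vector on the log2 scale. The response was higher with ONECUT2 for MBD3L2 (3.39), GSTA1 (2.66), FBXO32 (2.23), GSTA2 (2.21), RGS16 (2.15), KITLG (2.08), MT1G (1.90) and MT2A (1.51). It was lower for HSPA6 (-3.58), TGFB1 (-3.47), TRIM49D1 (-2.38), S1PR3 (-2.34), MYLK (-2.16), BCAR3 (-1.60), PER1 (-1.36) and ID2 (-1.17). KITLG, a growth factor ligand, was at 1.97 and 1.75 RPKM and then 3.71 and 3.31 RPKM with ONECUT2, and at 1.01 and 1.11 RPKM and then 0.344 and 0.478 RPKM with the empty vector. The metallothionein MT1G, which has close paralogs, was at 7.70 and 8.50 RPKM and then 5.30 and 4.74 RPKM with ONECUT2, and at 14.2 and 12.9 RPKM and then 2.43 and 1.94 RPKM with the empty vector.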

How the results depend on the processing

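With a pseudocount of 1, 392 genes were induced and 73 lowered, and with at least 5 RPKM required 368 and 74, where fewer genes were tested. Leaving out 1 library gave 504 to 711 induced and 107 to 167 lowered. No filter on low values, upper-quartile scaling, the ONECUT2 libraries alone, no variance trend and zeros kept in empty vector libraries left both counts within 1.5 times. In each of these settings some of the 629 induced genes lost their call. The interaction counts of 22 and 21 were less stable. The higher count became 42 with a pseudocount of 1, 1 with no filter, 44 with no variance trend and 281 unadjusted, and the lower count 1 with no filter and 145 unadjusted. Leaving out 1 library gave 1 to 119 and 0 to 44, and the cause was not tested. HIF1A (0.03) passed in none of these alternatives. With 1 ONECUT2 library left out it ranged from -0.12 to 0.17 (-0.078 without normoxia replicate 1 and -0.12 without hypoxia replicate 2). HIF1A had -0.027 with upper-quartile scaling.

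The replicate numbers did not pair the libraries, since deviations of same-numbered libraries correlated at -0.0137 between the ONECUT2 groups and between -0.115 and 0.204 over all pairs of groups. With a replicate block, 623 genes were induced and 138 lowered, and the interaction counts were 7 and 9.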
